A study of Mus musculus with 14 samples.

Results

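The genes described here belong to the machinery that moves membrane between compartments of the cell. They were chosen by symbol alone: every probe whose symbol in the platform's annotation begins with Rab, Snx, Vps, Vamp, Stx, Snap, Arf or Arl followed by a digit, or with Chmp. This gave 104 probes of 99 genes, out of 10012 probes on the array, whose probes with a single symbol name 8841 genes. By role they comprised 35 probes for Rab GTPases, 22 for SNAREs and their relatives (Vamp, Stx and Snap), 17 for Vps proteins, 10 for sorting nexins, 9 for ESCRT-III subunits (Chmp) and 7 for Arf and Arl GTPases. The remaining 4 share only the start of a symbol and were set apart. They are 2 probes for Rab10os, a transcript annotated on the strand opposite Rab10, and 1 probe each for the Rab11 effector Rab11fip2 and for Rab5if. Snap91 and Vps72 carry a class symbol without its role, but were left among the SNARE and Vps probes.

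The study used 14 one-colour microarrays, 2 in each of 7 groups, with RNA from macrophages that thioglycollate had elicited in 6-week-old female C57BL/6 mice. The groups were GW7845 + poly(I:C), GW3965 + poly(I:C), poly(I:C) alone, GW7845 + LPS, GW3965 + LPS, LPS alone and no treatment. LPS (lipopolysaccharide) is a bacterial ligand of Toll-like receptor 4, and poly(I:C) is a synthetic double-stranded RNA that binds Toll-like receptor 3. GW3965 activates the liver X receptors and GW7845 activates PPARγ, and no group received either agonist without a stimulus. All groups shared the same strain, sex, age and elicitation, and no cells without elicitation were measured. The 2 arrays of a group are described as biological replicates, without a statement of whether each was 1 mouse or pooled cells. The labels used here state neither doses nor times.

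Transport vesicles and endosomes are addressed by small GTPases of the Rab, Arf and Arl families, which cycle between a GTP-bound form on membranes and a GDP-bound form. A vesicle fuses with its target when a SNARE on the vesicle (such as a Vamp protein) assembles with SNAREs on the target (syntaxins and Snap proteins). Sorting nexins and the Vps26 and Vps29 subunits of retromer retrieve cargo from endosomes, tethering complexes such as GARP (Vps51 to Vps54) and HOPS hold incoming membranes, and the ESCRT complexes, which include the Chmp proteins, bud vesicles into endosomes. Macrophages depend on this machinery for phagocytosis, for the movement of Toll-like receptors and for the secretion of cytokines.

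Values are log2 of the deposited intensity, which is relative to the array's median, so 0 is the median probe of an array. Values below 0.0686 (-3.87 on the log2 scale) were raised to that floor. The 14 arrays were split by their own intensities, at the widest gap between their 10th percentiles on the log2 scale. This gave 2 sets of 7, called A and B, with 10th percentiles of 0.137 to 0.271 and 0.0549 to 0.0833. Values of 29 probes were missing on all of set A only and of 30 on all of set B only. The labels used here name no such sets, and what separates them was not tested. Every group had 1 array in each set, and replicate 1 lay in set A except in the GW7845 + LPS group. A gene was called at a limma adjusted p under 0.05 over all 9584 probes tested. A further fit that took the array set as a block is called the array-set fit. Macrophage markers were present (Lyz2 averaged 10.36, Cd14 8.34 and Msr1 6.88) while Fcgr1 lay near the floor at -2.63. The cytokine gene Il6, which both ligands are known to induce, measured 9.32 and 8.50 with poly(I:C) and 9.13 and 8.17 with LPS, against -1.66 and -2.80 without treatment.

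Most of the traffic genes were above the array median. The mean over the 14 arrays exceeded 0 for 76 of the 104 probes, against 4993 of all 10012, and the median of these means was 2.39, against -0.01 for all probes. At the other end 23 probes averaged -1 or less and 15 had at least 1 array at the floor, 10 of them Rab GTPases. The dim Rabs included the secretory Rabs Rab3a, Rab3b, Rab3c and Rab3d, the epithelial Rab17 and Rab25, and Rab27a and Rab27b, which act in the release of lysosome-related granules. Without detection calls, such dim signals cannot be set apart from background. Rab3b and Rab27b did not pass the filter on dim probes, which left 102 probes to test.

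The first comparisons were of stimulated with untreated cells. With LPS, 7 of the 102 traffic probes were called (6.86%), all of them higher, against 7.8% of all probes called in either direction, 5.21% higher and 2.6% lower. Under poly(I:C), 12 were called (11.8%), again all higher, against 8.86% of all probes in either direction, 6.08% higher and 2.78% lower. The share under LPS was thus close to that of all probes. The 7 called with LPS were Stx11, Rab20, Rab12, Rab32, Vamp5, Stx2 and Vps54, and all 7 were among the 12 called with poly(I:C). The other 5 were Stx6, Rab38, Snap23, Stx3 and Arf4. Both comparisons use the same 2 untreated arrays, so the overlap is not independent. The median over the 102 probes was +0.17 in both comparisons, against +0.06 (LPS) and +0.10 (poly(I:C)) for all probes, but these small shifts turned with the scaling. After quantile normalization the all-probe median was -0.08 in both comparisons. The traffic medians were then -0.07 and -0.08, and the calls became 6 higher and 1 lower with LPS and 6 higher and 3 lower with poly(I:C). Over all probes the higher calls were then 514 with LPS and 567 with poly(I:C), against 499 and 583 as scaled by the authors. The share of traffic probes called higher was thus close to that of all probes with both stimuli, and the excess with poly(I:C) was lost. Single arrays weighed on the counts, and the shares of all probes without those arrays are not given here. With LPS the count was 2 without LPS replicate 2, 3 without untreated replicate 1 and 4 without LPS replicate 1 or untreated replicate 2. The poly(I:C) count was 3 without poly(I:C) replicate 2, 5 and 6 without untreated replicates 1 and 2, and 7 without poly(I:C) replicate 1. Stx11 kept its call in both comparisons under all 23 alternatives run, as did Rab20 with LPS and Rab12 with poly(I:C). Each of the other calls was lost under 2 or more of them. Those lost most often were Stx2 (12) and Arf4 (11) with poly(I:C), and Vps54 with LPS (7).

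With the difference between the array sets removed, more genes were called, and some of them were lower. The array-set fit called 16 traffic probes with LPS, 12 higher and 4 lower, against 17.8% of all probes called, 9.59% higher and 8.18% lower. For poly(I:C) it called 21, 15 higher and 6 lower, against 18.7% of all probes, 10.6% higher and 8.03% lower. The additions on the higher side were Rab10 with both stimuli, Arf4, Rab38, Snap23 and Stx6 with LPS, and Rab5a and Rab9 with poly(I:C). On the lower side they were Snx27, Vamp4, Vps26b and Vps53 with both stimuli, and Snx12 and Snx7 with poly(I:C). In both sets all 6 stimulated arrays lay above the untreated array for 19 traffic probes (18.6%, against 14.2% of all probes) and below it for 10 (9.8%, against 15%).

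**Figure D1:**
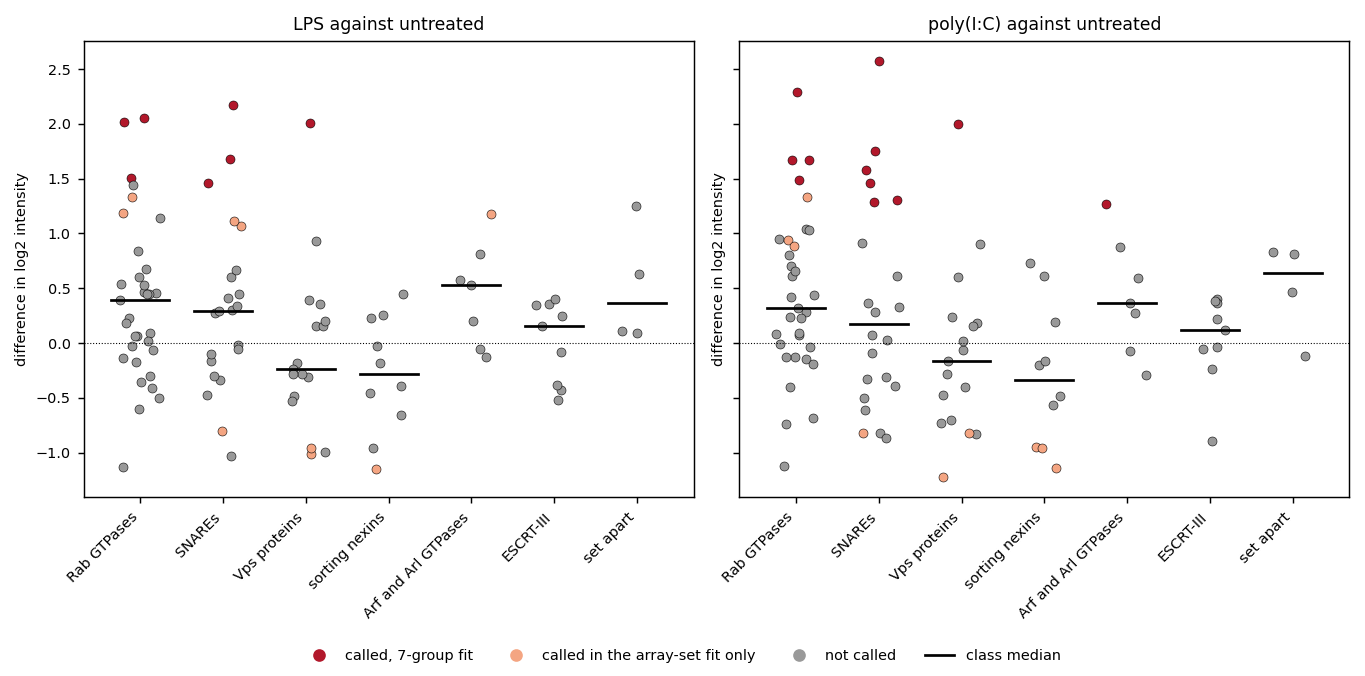
Difference in log2 intensity from untreated cells for each of the 102 tested probes, by class of gene (horizontal axis), with LPS (left) and poly(I:C) (right). Dark red points were called by the 7-group fit, pale points by the array-set fit alone, grey points by neither, and bars mark class medians. All 7 dark points with LPS and all 12 with poly(I:C) lie above 0, and they belong to SNAREs, Rab GTPases, Vps54 and Arf4.

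Other cells in these preparations could contribute RNA, and in bulk RNA a larger share of a cell type and more RNA per cell cannot be told apart. Summed intensity of 9 neutrophil marker probes was 32.9 and 54.1 with poly(I:C) and 38.4 and 50.8 with LPS, against 19.4 and 30.6 without treatment. That sum rests on S100a8 (mean 4.66), while Mpo, Elane and Ltf averaged -2.95, -2.79 and -2.13. Of the 8 neutrophil probes tested 1 was called higher with each stimulus. The 5 mast cell probes summed to 13.8 to 16.0 with poly(I:C) and 12.6 to 13.9 with LPS, against 8.78 to 10.6 without treatment, and none of the 5 was called. The 9 B cell probes summed to 21.2 to 24.7 with poly(I:C) and 33.2 to 33.5 with LPS, against 24.9 to 25.2. No B cell probe was called by limma, while the array-set fit called 1 higher with LPS and 2 lower with poly(I:C). Macrophage probes summed to overlapping ranges in stimulated and untreated cells, and 2 of 9 were called higher with poly(I:C) and 3 of 9 with LPS. The 12 T and NK cell probes, 4 eosinophil probes and 9 mesothelial and fibroblast probes gave overlapping sums in stimulated and untreated cells, with none called. The part of these cells in the results below was not tested.

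Of the 22 SNARE probes, 6 were called higher with poly(I:C) (27.3%, against 6.08% of all probes) and 3 with LPS (13.6%, against 5.21%). After quantile normalization these counts were 4 and 3, and over all probes the higher calls were 567 and 514, against 583 and 499 as scaled by the authors. Stx11 is a syntaxin-like SNARE without a membrane-spanning segment, and in humans its loss causes a familial form of haemophagocytic lymphohistiocytosis. It measured 4.39 and 4.34 with poly(I:C) and 3.90 and 4.01 with LPS, against 1.93 and 1.65 in untreated cells. The 8 agonist-treated arrays ranged between 3.26 and 4.65, so every stimulated array lay well above both untreated ones. The difference was +2.57 on the log2 scale with poly(I:C), or 5.95-fold (SE 0.36, limma adjusted p = 0.00033), and +2.17 with LPS, or 4.49-fold (SE 0.36, adjusted p = 0.0015). Within sets A and B it was +2.46 and +2.69 with poly(I:C), and +1.98 and +2.36 with LPS. This was the smallest p of any traffic gene in both comparisons and in the test of any difference among the 7 groups (adjusted p = 0.0032). That test called 4 traffic probes, Stx11, Rab12, Rab20 and Vamp5, against 5.3% of all probes, and 15 in the array-set fit, against 13.9%. Without untreated replicate 2 it called 0, and without untreated replicate 1 it called 1.

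The sequence before the start of 4 genes is printed because these 4 passed the test among all 7 groups. Each is the 250 bases upstream of the annotated start in RefSeq on GRCm38.p6, read 5′ to 3′ on the gene's strand, which is the minus strand for all 4. Capitals mark the GC box GGGCGG and the E-box CACGTG on either strand. The windows are chr10:12964260-12964509 (Stx11), chr17:66519671-66519920 (Rab12), chr8:11478641-11478890 (Rab20) and chr6:72380469-72380718 (Vamp5). A single window of each gene is printed, and any further matched window was left out here but kept in the counts below. Longer annotated transcripts of Stx11 and Rab12 begin upstream of the start used.
Stx11: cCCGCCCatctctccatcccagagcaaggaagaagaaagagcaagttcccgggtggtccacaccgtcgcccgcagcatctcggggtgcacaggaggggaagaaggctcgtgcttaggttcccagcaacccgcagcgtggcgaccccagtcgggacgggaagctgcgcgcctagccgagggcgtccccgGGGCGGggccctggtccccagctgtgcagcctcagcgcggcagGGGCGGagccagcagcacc
Rab12: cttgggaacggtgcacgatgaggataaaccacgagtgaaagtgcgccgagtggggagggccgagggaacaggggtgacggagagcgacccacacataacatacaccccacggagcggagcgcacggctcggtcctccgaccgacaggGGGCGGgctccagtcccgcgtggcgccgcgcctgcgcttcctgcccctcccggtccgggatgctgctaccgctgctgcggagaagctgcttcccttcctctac
Rab20: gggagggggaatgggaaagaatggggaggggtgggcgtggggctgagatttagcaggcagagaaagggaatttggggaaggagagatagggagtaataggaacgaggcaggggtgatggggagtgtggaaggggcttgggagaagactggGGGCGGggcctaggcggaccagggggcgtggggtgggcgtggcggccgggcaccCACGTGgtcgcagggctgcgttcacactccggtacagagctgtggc
Vamp5: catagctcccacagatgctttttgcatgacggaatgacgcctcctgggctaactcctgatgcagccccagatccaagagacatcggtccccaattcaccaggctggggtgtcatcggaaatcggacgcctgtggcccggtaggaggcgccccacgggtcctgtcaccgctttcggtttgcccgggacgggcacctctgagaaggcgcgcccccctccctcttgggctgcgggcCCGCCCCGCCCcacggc

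All 4 windows were rich in G and C (70.0% for Stx11, 67.6% for Rab12, 65.2% for Rab20 and 66.0% for Vamp5) and held 21, 26, 12 and 19 CpG dinucleotides. Of the 99 traffic genes 76 were matched to a promoter window in the table used, with 90 windows among them, and 11 of the 12 called genes were matched. The NF-kB motif, searched by its consensus on both strands with overlaps allowed, was found in none of the 11 called genes, in 4.44% of traffic windows and in 7.25% of all 32851 windows. The interferon-stimulated response element (2 copies of GAAA with 2 bases between them) was also in none of the 11, in 2.22% of traffic windows and in 2.98% of all. The E-box, a site for factors of the helix-loop-helix leucine zipper kind, was in Rab20 and Stx6, in 13.3% of traffic windows and 6.02% of all. The GC box, a site for Sp1 and its relatives, was in 8 of the 11 called genes, in 63.3% of traffic windows and in 32.7% of all. These matches describe the letters of the windows. They are not evidence of binding, and sites farther away were not searched.

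Vamp5, also called myobrevin and best known from muscle, was measured by 2 probes that disagreed. Probe 230 gave 2.53 and 2.04 with poly(I:C) and 2.03 and 1.95 with LPS, against 0.84 and 0.23 in untreated cells. It was higher by 1.75 with poly(I:C) (SE 0.37, limma adjusted p = 0.0071) and by 1.46 with LPS (SE 0.37, adjusted p = 0.025). Probe 7285 moved the other way, at 1.82 and 0.43 with poly(I:C) and 1.84 and 0.11 with LPS, against 2.63 and 1.37. In both sets every stimulated array lay below the untreated one on this probe, but the differences of -0.87 (SE 0.69) and -1.03 (SE 0.69) did not pass in either fit. A direction for the gene Vamp5 therefore depends on which probe is read. Which transcript each probe detects is not stated in the files.

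**Figure D2:**
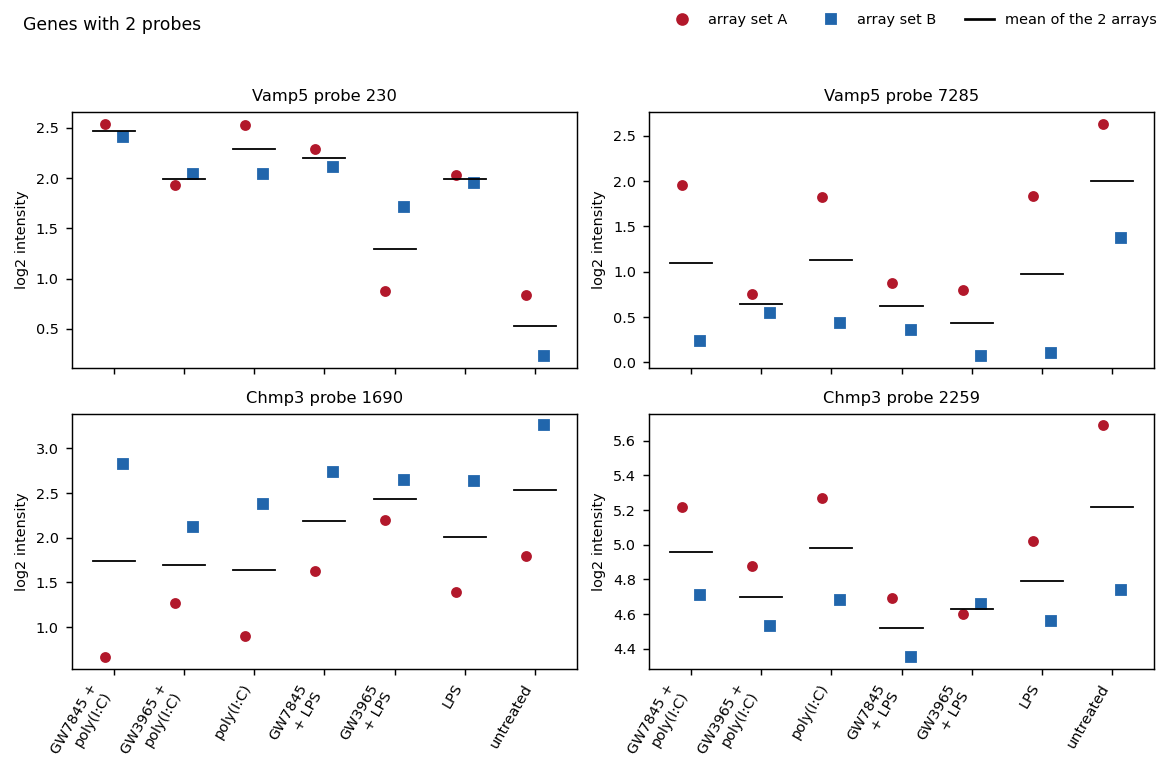
log2 intensity on each array for Vamp5 and Chmp3, genes with 2 probes each, by group (horizontal axis) and array set (red circles A, blue squares B). Bars are means of the 2 arrays, and each panel has its own vertical scale. Vamp5 probe 230 is lowest in untreated cells at 0.84 and 0.23, while probe 7285 is highest there within each set, at 2.63 and 1.37.

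Snap23, the widely expressed relative of neuronal Snap25 that pairs with syntaxins at the plasma membrane, measured 5.23 and 5.13 with poly(I:C) and 4.91 and 5.02 with LPS, against 3.68 and 4.12 in untreated cells. Its increase was 1.29 with poly(I:C) (SE 0.32, limma adjusted p = 0.021), and the difference of +1.07 with LPS passed in the array-set fit (adjusted p = 0.0085) but not without the block (adjusted p = 0.063). Stx6, a syntaxin of the trans-Golgi network that carries cytokine cargo in macrophages, had 2.61 and 2.79 with poly(I:C) and 2.16 and 2.54 with LPS, against 1.36 and 1.11. Its increase was 1.46 with poly(I:C) (SE 0.35, adjusted p = 0.015), while +1.11 with LPS had adjusted p = 0.072 without and 0.015 with the block. The plasma membrane syntaxin Stx2 measured 2.02 and 2.92 with poly(I:C) and 2.02 and 3.12 with LPS, against 0.81 and 0.96. The increases were 1.58 (SE 0.44, adjusted p = 0.040) and by 1.68 (SE 0.44, adjusted p = 0.031). Its increase in set B was larger than in set A with both stimuli (+1.96 against +1.21, and +2.16 against +1.21).

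Stx3, known in epithelial cells as the syntaxin of the apical membrane, had the smallest p of any traffic gene between the stimuli. It measured 3.35 and 3.07 with poly(I:C) and 2.44 and 2.55 with LPS, against 1.80 and 1.99 without treatment. All 3 groups were separate. The increase passed with poly(I:C) at +1.31 (SE 0.35, limma adjusted p = 0.031), and the value with LPS was +0.60 (SE 0.35, adjusted p = 0.46). The difference of poly(I:C) from LPS, +0.71 (95% interval -0.04 to 1.47), did not pass (adjusted p = 1.0).

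Among SNAREs that were lower, Vamp4, which cycles between the trans-Golgi network and endosomes, had 3.85 and 2.85 with poly(I:C) and 3.56 and 3.18 with LPS, against 4.38 and 3.96. Within each set all 6 stimulated arrays lay below the untreated array. The differences of -0.82 and -0.80 (SE 0.46 each) passed in the array-set fit (adjusted p = 0.036 and 0.043) and not without the block (0.41 and 0.43). Other SNAREs gave no call. The late endosomal Vamp8 stood at +0.33 (SE 0.47) and -0.05 (SE 0.47), and the plasma membrane syntaxin Stx4a, which takes part in cytokine release at the phagocytic cup, at +0.37 and +0.67 (SE 0.44 each). Snap91, a clathrin adaptor of neurons that carries the Snap symbol without being a SNARE, lay near the floor with a mean of -3.15. The class median was +0.18 with poly(I:C) and +0.30 with LPS, and after quantile normalization it was -0.05 and +0.09.

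**Figure D3:**
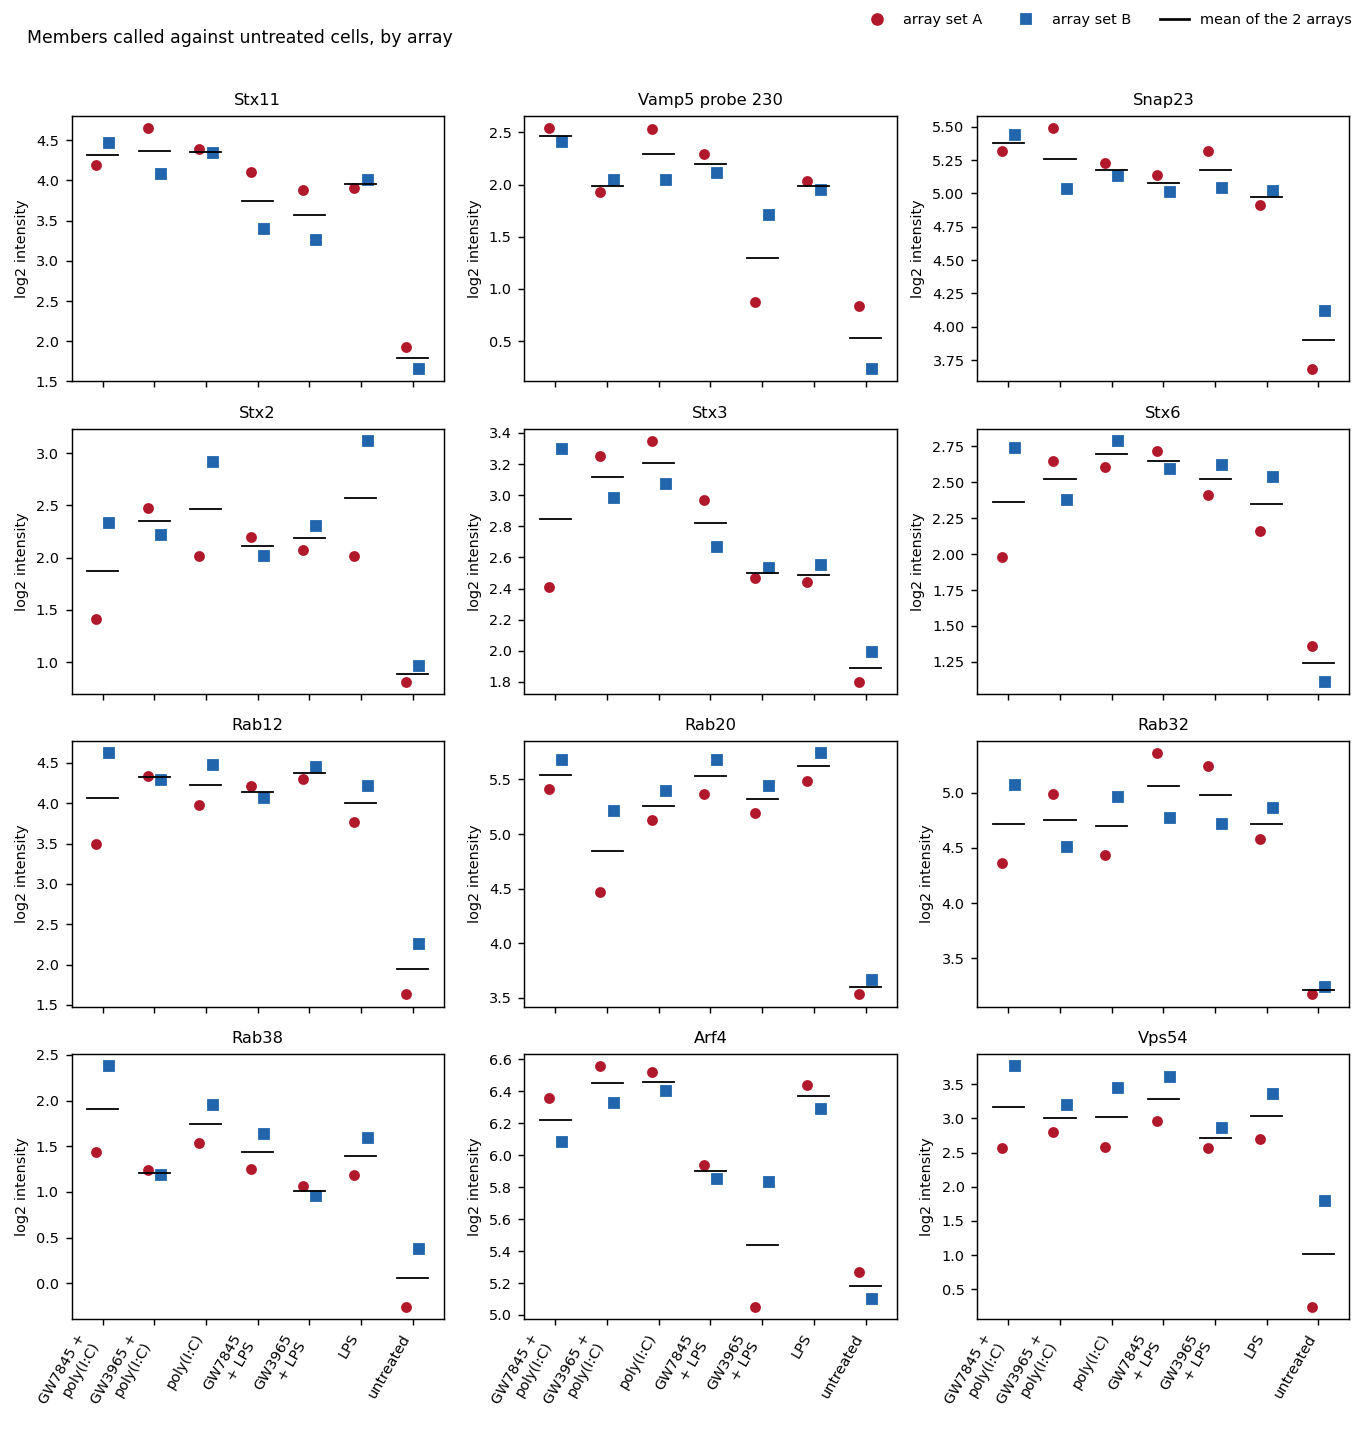
log2 intensity on each of the 14 arrays for the 12 genes called against untreated cells, by group (horizontal axis) and array set (red circles A, blue squares B). Bars are means of the 2 arrays and each panel has its own vertical scale. The untreated arrays of Stx11, at 1.93 and 1.65, lie below all 12 stimulated arrays, while for Arf4 the GW3965 + LPS array at 5.05 lies below both untreated ones.

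Rab GTPases gave 4 calls of 33 with poly(I:C) (12.1%, against 6.08% of all probes called higher) and 3 of 33 with LPS (9.09%, against 5.21%), all higher. After quantile normalization these counts were 2 and 3. Over all probes the higher calls were then 567 with poly(I:C) and 514 with LPS, against 583 and 499 as scaled by the authors. The Rab share with poly(I:C) was thus close to that of all probes after this normalization. Rab12, which directs transferrin receptor from recycling endosomes to lysosomes, measured 3.98 and 4.48 with poly(I:C) and 3.77 and 4.22 with LPS, against 1.63 and 2.26 in untreated cells. Its increases were 2.29, or 4.89-fold (SE 0.40, limma adjusted p = 0.0019), and by 2.05, or 4.15-fold (SE 0.40, adjusted p = 0.0046). Rab20, a Rab of phagosomes and macropinosomes that responds to interferon-γ, had 5.13 and 5.39 with poly(I:C) and 5.49 and 5.74 with LPS, against 3.53 and 3.66. Its increase was 1.67, or 3.18-fold, with poly(I:C) (SE 0.35, adjusted p = 0.0061) and 2.02, or 4.06-fold, with LPS (SE 0.35, adjusted p = 0.0017). For both Rabs the 12 stimulated arrays lay above the 2 untreated ones.

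Rab32 and Rab38 are close relatives that serve lysosome-related organelles such as melanosomes. Rab32 measured 4.44 and 4.96 with poly(I:C) and 4.58 and 4.86 with LPS, against 3.17 and 3.24, and was higher by 1.49 (SE 0.38, limma adjusted p = 0.023) and 1.51 (SE 0.38, adjusted p = 0.024). Rab38 had 1.53 and 1.95 with poly(I:C) and 1.19 and 1.59 with LPS, against -0.26 and 0.38. It was higher by 1.67 with poly(I:C) (SE 0.40, adjusted p = 0.015), and its +1.33 with LPS had adjusted p = 0.060 without and 0.0062 with the block. Neither gene had a stimulated array that reached an untreated one. Hps1, a subunit of the exchange factor that activates Rab32 and Rab38 but outside the symbols used to choose genes, measured 2.19 and 1.19 with poly(I:C), against 0.26 and 0.08, and was also called higher, by 1.52 (SE 0.42, adjusted p = 0.035). With LPS it had 1.88 and 1.35 and was just inside the threshold at +1.45 (SE 0.42).

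The classical endosomal Rabs were less uniform. Rab7, the Rab of late endosomes and phagolysosomes, measured 7.62 and 7.44 with poly(I:C) and 7.60 and 7.38 with LPS, against 7.60 and 7.28. Its differences of +0.09 and +0.06 had 95% intervals of -0.66 to 0.85 and -0.70 to 0.81. Rab5a, the Rab of early endosomes, had 5.23 and 4.26 with poly(I:C) and 4.49 and 4.20 with LPS, against 3.97 and 3.65. Its +0.94 with poly(I:C) (SE 0.43) passed in the array-set fit (adjusted p = 0.020) and not without the block (0.26), and +0.54 with LPS passed in neither. Rab9, which returns cargo from late endosomes to the Golgi, stood at +0.89 with poly(I:C) (SE 0.52), which again passed in the array-set fit alone (adjusted p = 0.034, or 0.43 without the block), and at +0.45 with LPS.

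Rab10, which carries Toll-like receptor 4 and other cargo to the cell surface, was called only with the array set as a block. It measured 6.30 and 5.42 with poly(I:C) and 6.17 and 5.27 with LPS, against 5.03 and 4.02, and the set A array was the higher one in each of these 3 groups. Within sets A and B the increase was +1.27 and +1.40 with poly(I:C), and +1.14 and +1.25 with LPS. The array-set fit called both (adjusted p = 0.0012 and 0.0029), and the fit without the block neither (0.15 and 0.23). No Rab was called lower in either fit. Rab13, a Rab of epithelial junctions, came nearest at -1.12 (SE 0.54, adjusted p = 0.29) and -1.13 (SE 0.54, adjusted p = 0.30), with 0.80 and 0.27 and then 0.91 and 0.12, against 2.33 and 0.98. The class median was +0.32 with poly(I:C) and +0.39 with LPS, and +0.09 and -0.04 after quantile normalization.

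Of 7 Arf and Arl probes, Arf4 alone was called higher with poly(I:C), against 6.08% of all probes, and none with LPS, against 5.21%. A single call among 7 probes does not describe the class. This Golgi Arf measured 6.52 and 6.40 with poly(I:C) and 6.44 and 6.29 with LPS, against 5.27 and 5.10. It was higher by 1.27 with poly(I:C) (SE 0.35, limma adjusted p = 0.034), and +1.18 with LPS had adjusted p = 0.054 without and 0.0072 with the block. Arf1, which recruits coat proteins at the Golgi, and Arf6, the Arf of the plasma membrane and of phagocytic cups, did not pass. Arf6 had 3.51 and 3.11 with poly(I:C) and 3.46 and 3.15 with LPS, against 2.83 and 2.62, at +0.59 and +0.58 (SE 0.34 each). Arf1 stood at +0.37 and +0.53 (SE 0.35 each).

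Vps proteins and sorting nexins had medians below 0. For the 17 Vps probes the median was -0.16 with poly(I:C) and -0.24 with LPS, and for the 10 sorting nexins -0.34 and -0.28. After quantile normalization these were -0.43, -0.25, -0.47 and -0.38, beside a median of -0.08 for all probes in both comparisons. Without the block, on the values as scaled, the single call among them was Vps54, which was higher. Of all probes 6.08% were called higher with poly(I:C) and 5.21% with LPS, so a single call among the 17 and 10 probes is no excess. Quantile normalization removed the call of Vps54 with both stimuli. Vps54 joins the GARP complex, which tethers vesicles from endosomes at the trans-Golgi network, and it measured 2.58 and 3.45 with poly(I:C) and 2.70 and 3.35 with LPS, against 0.24 and 1.79. Its increases were 2.00, or 4.01-fold (SE 0.54, adjusted p = 0.032), and by 2.01, or 4.04-fold (SE 0.54, adjusted p = 0.034). The untreated arrays differed by over 1 log2 unit, so the increase was +2.34 and +2.47 in set A and +1.66 and +1.56 in set B.

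The other measured GARP subunits did not share that direction. Vps53 measured 2.05 and 2.31 with poly(I:C) and 2.03 and 2.05 with LPS, against 3.23 and 2.77. Its differences of -0.82 and -0.96 (SE 0.32 each) passed in the array-set fit (adjusted p = 0.037 and 0.017) and not without the block (0.16 and 0.098). After quantile normalization Vps53 was called lower with LPS without the block (-0.99). Vps51 stood at -0.70 and -0.99 (SE 0.95 each), with every stimulated array below the untreated array of its set, and did not pass. Vps50, which takes the place of Vps54 in a related complex on recycling endosomes, stood at -0.83 and -0.53 (SE 0.88 each) and did not pass.

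Genes of retrieval from endosomes were among those called lower, in the array-set fit alone. Vps26b, a cargo-side subunit of retromer, measured 2.35 and 2.08 with poly(I:C) and 2.48 and 2.37 with LPS, against 3.73 and 3.14. Snx27, which links receptors that carry PDZ-binding tails to retromer, had 1.88 and 1.07 with poly(I:C) and 1.55 and 1.37 with LPS, against 2.89 and 2.34. For both genes every stimulated array was below both untreated ones. Vps26b differed by -1.22 and -1.01 (SE 0.37 each), with an array-set adjusted p of 0.013 and 0.038, and of 0.057 and 0.13 without the block. Snx27 differed by -1.14 and -1.15 (SE 0.37 each), with an array-set adjusted p of 0.022 for both, and of 0.082 and 0.086 without the block. After quantile normalization the fit without the block also called Vps26b (-1.37) and Snx27 (-1.19) lower with poly(I:C).

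Snx12, a small sorting nexin related to the retromer partner Snx3, had 2.49 and 2.32 with poly(I:C) and 2.99 and 2.40 with LPS, against 3.60 and 3.10. It passed in the array-set fit with poly(I:C) at -0.95 (SE 0.34, adjusted p = 0.027) and not with LPS at -0.66 (adjusted p = 0.12). Without the block it was called lower with poly(I:C) after quantile normalization (-1.08). Snx7 differed by -0.96 with each stimulus (SE 0.47), with an array-set adjusted p of 0.049 with poly(I:C) and 0.052 with LPS. Other genes of retrieval showed no call: the retromer subunit Vps29 stood at +0.16 with each stimulus (SE 0.33), the membrane-bending Snx2 at +0.61 and +0.23 (SE 0.45), and Snx9, a sorting nexin of endocytosis, at -0.48 and -0.18 (SE 0.39). The array-set fit thus called 3 of 10 sorting nexins lower with poly(I:C), against 8.03% of all probes, and 1 with LPS, against 8.18%. It called 2 of 17 Vps probes lower with each stimulus (11.8%), and the counts of 1 of 10 and 2 of 17 are near the share of all probes. Vps72, a chromatin protein that carries the Vps symbol, was not called in either comparison.

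**Figure D4:**
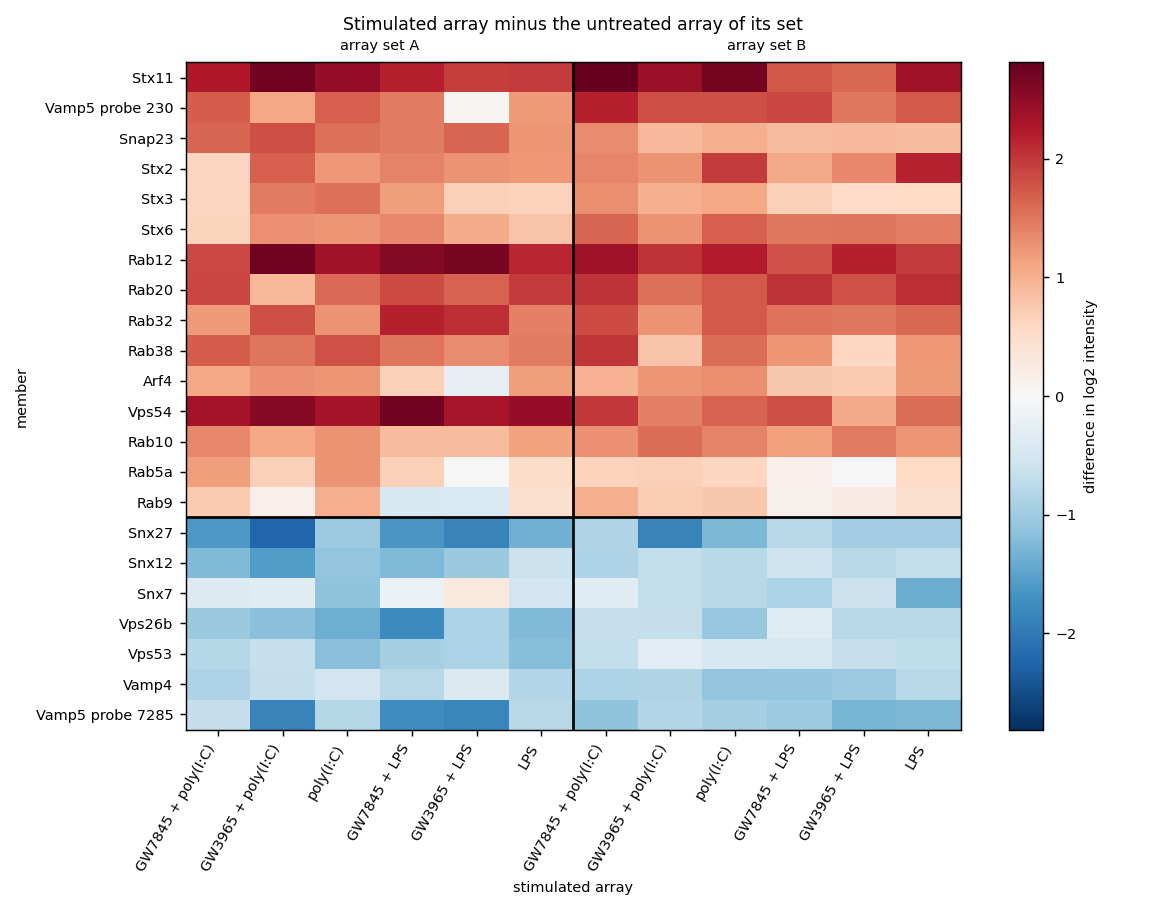
Difference in log2 intensity between each stimulated array and the untreated array of its own set (colour; red higher, blue lower) for genes called in either fit, and for the second Vamp5 probe (bottom row). Columns are the stimulated arrays of set A (left) and set B (right). The upper 15 rows are mostly red, with Arf4 and Rab9 below 0 in some agonist columns, and the rows from Snx27 down are mostly blue in both sets.

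ESCRT-III subunits gave no call in either comparison by either fit. At an unadjusted p under 0.05 limma also gave 0 of the 9 with each stimulus, against 18.7% of all probes with poly(I:C) and 17.5% with LPS. The array-set fit gave 1 with poly(I:C) and 0 with LPS at that threshold. Its shares of all probes there are not given, so these 2 counts cannot be set against them. Across 9 probes the differences ran between -0.89 and +0.40 with poly(I:C) and between -0.52 and +0.40 with LPS. Chmp2a, a late-assembling subunit, measured 6.65 and 6.49 with poly(I:C) and 6.88 and 6.52 with LPS, against 6.65 and 6.25. Chmp2b, its relative, stood at +0.37 and +0.36 (SE 0.31 each) and Chmp5 at +0.38 and +0.16 (SE 0.31 each). The 2 Chmp3 probes both had negative differences, at -0.24 and -0.43 for probe 2259 and -0.89 and -0.52 for probe 1690, none of them past the test. In untreated cells probe 2259 was higher in set A than in set B (5.69 and 4.74) and probe 1690 lower (1.80 and 3.26). The 3 Chmp4c probes averaged -0.98, -2.62 and -2.97 and gave differences on both sides of 0, and the last 2 reached the floor on some arrays. Of the probes set apart, the 2 for Rab10os disagreed with poly(I:C), at -0.12 (SE 0.60) and +0.47 (SE 1.06), and neither passed.

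The next question was whether the stimuli differed from each other. None of the 102 traffic probes was called between poly(I:C) and LPS, against 0.0104% of all probes called. At an unadjusted limma p under 0.05 there were 0, against 0.543% of all probes, and the array-set fit called 0, against 0.0209%, with 2 at an unadjusted p under 0.05, against 3.14%. The 3 smallest p-values belonged to Stx3 at +0.71 (SE 0.35), the ESCRT-I subunit Vps37a at -0.89 (SE 0.53) and the late endosomal syntaxin Stx7 at -0.54 (SE 0.33). Stx7 measured 3.95 and 4.23 with poly(I:C), against 4.60 and 4.67 with LPS. Across the 12 genes called above, the differences between the stimuli ran from -0.35 for Rab20 to +0.71 for Stx3, with SEs of 0.32 to 0.54.

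The agonists were then set against the stimulus alone. With poly(I:C), GW7845 gave 0 traffic calls, against 0.0% of all probes called, and GW3965 gave 0, against 0.0104%. At an unadjusted limma p under 0.05 there was 1 traffic probe with each, against 0.866% and 1.49% of all probes. With LPS, GW7845 gave 0, against 0.0% of all probes called, and 0 at an unadjusted p under 0.05, against 1.44%. GW3965 with LPS gave 0, against 0.0313%, and 2 at an unadjusted p under 0.05, against 3.11%. The array-set fit called 0 traffic probes in all 4 comparisons, against 0.0% of all probes for GW7845 with either stimulus, 0.073% for GW3965 with poly(I:C) and 0.407% for GW3965 with LPS. At an unadjusted p under 0.05 it gave 2 for GW7845 with poly(I:C) (3.78% of all probes), 3 for GW3965 with poly(I:C) (6.2%), 5 for GW7845 with LPS (5.94%) and 8 for GW3965 with LPS (9.76%). The neutrophil sum was 20.8 to 22.5 for GW3965 + poly(I:C) and 51.9 to 62.1 for GW7845 + poly(I:C), against 32.9 to 54.1 for poly(I:C). It was 23.3 to 25.4 for GW3965 + LPS and 38.5 to 42.1 for GW7845 + LPS, against 38.4 to 50.8 for LPS. The part of this sum in the values was not tested. A p that misses the threshold does not show equal levels, and the intervals below give the changes these arrays allow.

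GW7845 with poly(I:C) was set against poly(I:C) alone. The vesicle SNARE Vamp1 measured -1.49 and -1.88 with GW7845, against -3.87 (the floor) and -3.11, a difference of +1.80 (95% interval 0.06 to 3.55, adjusted p = 1.0) at a level near the floor. The Golgi Rab30 measured -3.42 and -3.87, against -1.50 and -2.98, at -1.40 (95% interval -2.98 to 0.17). Stx2 was at -0.60 (95% interval -1.55 to 0.36). Levels like those of Vamp1 and Rab30 were not shown to lie above background.

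GW3965 with poly(I:C) was set against the same 2 arrays. Snx27, one of the genes lower in stimulated cells, measured 0.66 and 0.46 with GW3965, against 1.88 and 1.07 with poly(I:C) alone, at -0.92 (95% interval -1.72 to -0.11, limma adjusted p = 1.0, array-set adjusted p = 0.64). Rab30 was at -1.27 (95% interval -2.84 to 0.30) and Rab5if at -0.53 (95% interval -1.30 to 0.24).

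GW7845 with LPS was set against LPS alone. Vps37a was at -1.04 (95% interval -2.18 to 0.10), Stx4a at -0.84 (95% interval -1.79 to 0.10) and Rab33b, a Golgi Rab that also acts in autophagy, at +0.79 (95% interval -0.13 to 1.72). The sets disagreed for Rab33b (-0.07 in set A and +1.65 in set B), and for Stx4a the difference was -1.52 in set A and -0.16 in set B.

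GW3965 with LPS was likewise set against LPS alone. Arf4 measured 5.05 and 5.83 with GW3965, against 6.44 and 6.29, a difference of -0.93 (95% interval -1.67 to -0.18, limma adjusted p = 1.0, array-set adjusted p = 0.24), so the set A array lay below both untreated arrays. Snx4, which returns cargo from early endosomes to the recycling compartment, measured -2.84 and -2.21, against -0.52 and -1.31, at -1.61 (95% interval -2.94 to -0.28, array-set adjusted p = 0.21). Vamp5 probe 230 measured 0.88 and 1.71, against 2.03 and 1.95, at -0.69 (95% interval -1.49 to 0.11). For all 3 the gap was larger in set A than in set B. The levels of Snx4 lay below the array median and were not shown to lie above background.

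**Figure D5:**
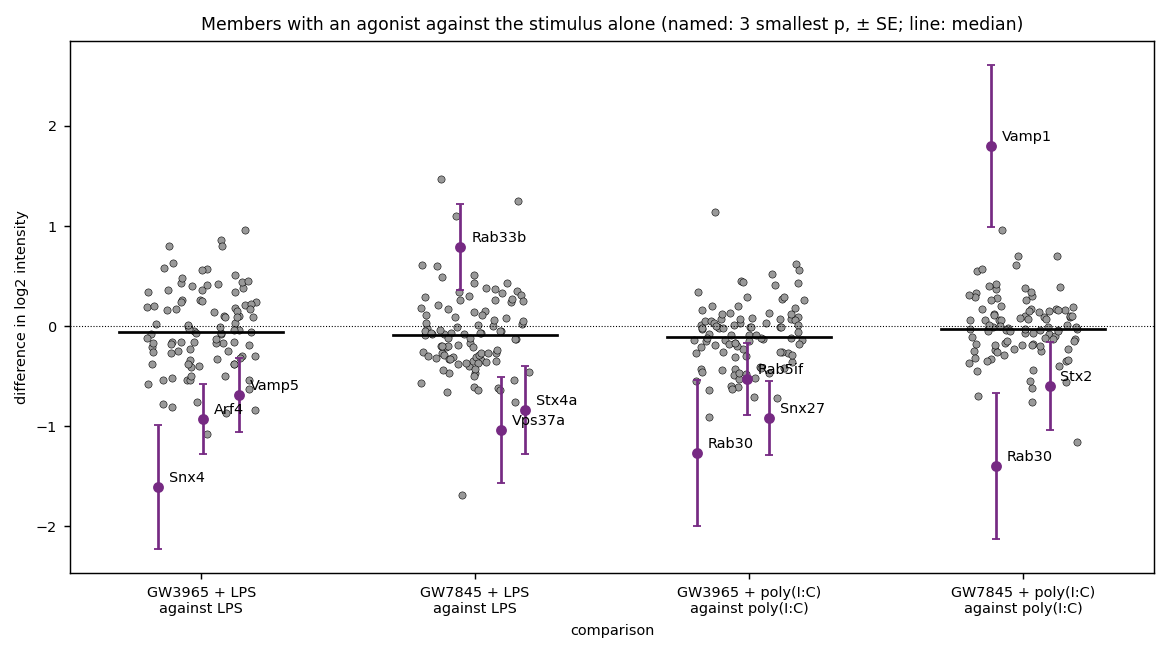
Difference in log2 intensity between cells given an agonist with a stimulus and cells given that stimulus alone, for each of the 102 tested probes (points) in 4 comparisons (horizontal axis). Bars mark the medians, and the 3 probes with the smallest p of each comparison are purple with bars of 1 SE. No point passed the test, and the named differences run between -1.61 for Snx4 and +1.80 for Vamp1.

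The genes called with a stimulus were examined under the agonists too. They were chosen on the same stimulus arrays that enter these differences, so their values are given as a description. With poly(I:C) the 12 genes differed by -0.60 (Stx2) to +0.28 (Rab20) under GW7845 and by -0.53 (Rab38) to +0.09 (Rab12) under GW3965. With LPS the 7 called genes differed by -0.46 (Stx2) to +0.35 (Rab32) under GW7845, and by -0.69 (Vamp5 probe 230) to +0.38 (Rab12) under GW3965. Stx11 measured 4.19 and 4.46 under GW7845 with poly(I:C), 4.65 and 4.08 under GW3965 with poly(I:C), 3.39 and 4.11 under GW7845 with LPS, and 3.88 and 3.26 under GW3965 with LPS. All 8 lay above both untreated arrays.

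Set against each other, the agonists gave no traffic call. GW7845 against GW3965 with LPS gave 0, against 0.0104% of all probes, with 2 at an unadjusted limma p under 0.05 against 1.62%. The same pair with poly(I:C) gave 0, against 0.0417%, with 1 at an unadjusted p under 0.05 against 1.98%. The array-set fit called 0 in both, against 0.0626% with LPS and 0.104% with poly(I:C), with 5 and 7 at an unadjusted p under 0.05, against 5.94% and 7.94%. With LPS the smallest p-values were those of Snx4 at +1.72 (95% interval 0.39 to 3.05), Vamp5 probe 230 at +0.90 (0.10 to 1.70) and the ER-to-Golgi Rab1b at -0.78 (-1.66 to 0.10). With poly(I:C) they were those of Snx27 at +0.82 (0.02 to 1.62), Rab20 at +0.71 (-0.03 to 1.45) and Rab38 at +0.70 (-0.16 to 1.55). Since no doses are stated, these are differences between the treatments as given. The neutrophil sums given above also differed between the agonists with each stimulus, and their part in these values was not tested.

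Whether an agonist acted differently under LPS and under poly(I:C) was tested as an interaction, and neither agonist gave a traffic call (0.0% of all probes called for both, by limma and by the array-set fit). At an unadjusted limma p under 0.05 there were 0 traffic probes for each agonist, against 0.48% of all probes for GW7845 and 0.303% for GW3965. The array-set fit gave 2 for GW7845 and 3 for GW3965, against 2.93% and 2.86%. The smallest p-values for GW7845 were those of Vps37a at -1.61 (95% interval -3.22 to 0.00), Rab30 at +1.78 (-0.44 to 4.01) and Rab33b at +0.98 (-0.33 to 2.29). For GW3965 they were those of Rab30 at +2.06 (-0.16 to 4.29), Arf4 at -0.92 (-1.97 to 0.14) and Snx4 at -1.52 (-3.39 to 0.36).

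Partners and regulators of the same pathway with other symbols were followed in a list of 181 genes (adaptors, tethers, SNARE chaperones, Rab regulators and others), of which 104 probes were measured and 102 tested. With poly(I:C) 5 were called higher and 1 lower, against 6.08% and 2.78% of all probes, and with LPS 4 higher and 1 lower, against 5.21% and 2.6%. The array-set fit called 10 higher and 5 lower with poly(I:C), against 10.6% and 8.03%, and 12 higher and 8 lower with LPS, against 9.59% and 8.18%. These counts over 102 probes are near or below the shares of all probes. The list's medians were +0.03 and +0.06. None was called by limma when the stimuli or agonists were compared with each other or an agonist with its stimulus alone.

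The largest increase in that list was that of Ehd1, an ATPase that drives recycling from endosomes. It measured 8.31 and 7.19 with poly(I:C) and 7.97 and 6.87 with LPS, against 4.17 and 2.84 in untreated cells, at +4.25 and +3.92 (SE 0.56 each, limma adjusted p = 0.00018 and 0.00042). Stxbp3, the Munc18 protein that binds plasma membrane syntaxins such as Stx2 and Stx4a, measured 5.25 and 5.62 with poly(I:C) and 5.00 and 5.15 with LPS, against 2.76 and 3.05. It was higher by 2.53 and 2.17 (SE 0.35 each, adjusted p = 0.00027 and 0.0011). Gosr1, a SNARE of the Golgi, was higher by 1.49 (SE 0.32, adjusted p = 0.0077) and by 1.11 (SE 0.32, adjusted p = 0.048), and Ap2b1, a subunit of the endocytic clathrin adaptor, by 1.51 with poly(I:C) (SE 0.41, adjusted p = 0.034). Ap1s2, a subunit of the clathrin adaptor of the trans-Golgi network and endosomes, was the one called lower. It measured 4.45 and 4.0 with poly(I:C) and 3.80 and 3.98 with LPS, against 5.93 and 5.83, at -1.66 and -1.99 (SE 0.39 each, adjusted p = 0.014 and 0.0045).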

How the data were processed

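The authors deposited 1 table with a linear intensity for each of 10012 probes on 14 arrays of biotin-labelled RNA (0.5 µg of total RNA each, per the labels). Each array's median was 1, so the authors had scaled the values, and the labels name no scanner software, background method or scaling. Arrays were grouped by title, and genes were named from the platform's annotation, where 8983 probes had 1 symbol and all 104 symbols used equalled RefSeq's.

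Intensities under the 5th percentile of positive values were raised to it and log2 was taken. Probes above the 20th percentile of at least 2 arrays were tested (9584) with limma 3.58.1 in R 4.3.3: 7 group means, an intensity trend, 7 residual degrees of freedom and Benjamini-Hochberg adjustment over all probes of a comparison. The array-set fit added the set as a block (6 residual degrees of freedom). Intervals are 95% intervals of single probes, without adjustment. No array value of a traffic probe was missing. The script was tested on simulated data. No detection calls were used, and 2 arrays a group limit the precision of every value. With biological replicates of unknown source, p-values measure the spread between these samples. In the fit without the block that spread includes the difference between the array sets, so it is not the spread between biological replicates alone.

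The traffic genes, the other gene lists and the cell markers were chosen with earlier results of these data known. Named genes are all called by limma against untreated cells, those called by the array-set fit alone, the 3 smallest p-values of the other comparisons, for each class the smallest p among the 7 groups and the highest mean, genes with several probes, called genes of the second list, and 11 textbook members where a probe exists (Vps35, Vamp3, Arl8b and Chmp4b were not analysed here). Rab13, Vps50, Vps51 and other genes named beside these were chosen after their values were seen. Alternatives were the array set or the replicate number as a block, quantile normalization, another floor, a pseudocount, other filters, no intensity trend, array weights and leaving out each array in turn. Leaving arrays out of the array-set fit was added after seeing the data.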

Additional observations from a re-analysis of the deposited data

How the results depend on the processing

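Of the calls against untreated cells, none changed direction under any alternative. The LPS count of 7 moved to 16 with the array set as a block, to 12 with the stricter filter and to 3 with no intensity trend. Leaving out 1 array gave 2 to 9. The poly(I:C) count of 12 moved to 21 with the array set as a block and to 7 with no intensity trend, and leaving out 1 array gave 3 to 12. For any difference among the 7 groups the count of 4 moved to 15 with the array set as a block and to 1 with no intensity trend, and leaving out 1 array gave 0 to 5. In the array-set fit, leaving out 1 array gave 7 to 18 with LPS (16 with all arrays), 13 to 24 with poly(I:C) (21) and 4 to 18 among the 7 groups (15), and the low ends were without LPS replicate 2, without untreated replicate 1 or poly(I:C) replicate 1, and without untreated replicate 1. Without an array the remaining one of its group is assumed to vary like the other groups. The cause of these moves was not tested. With the array set as a block and all arrays, the shares of all probes called were 17.8% (LPS), 18.7% (poly(I:C)) and 13.9% (7 groups). Shares of all probes with the stricter filter, without the intensity trend and without single arrays are not given here. Whether the traffic counts followed those of all probes under these settings can therefore not be told. Quantile normalization gave 7 calls with LPS, of which 6 were shared with the 7 above, and 9 with poly(I:C), of which 6 were shared with the 12. Over all probes it gave 514 higher and 380 lower with LPS and 567 and 416 with poly(I:C), against 499 and 249, and 583 and 266, as scaled by the authors. The counts of 0 for poly(I:C) against LPS, for the agonists and for the interactions stayed 0 under all alternatives run.

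The replicate numbers of the labels followed the array sets in every group except GW7845 + LPS, where they were swapped. Deviations from the group means were correlated between arrays. Same-numbered arrays had correlations between -0.54 and 0.67 over 42 pairs, and the negative ones involved the GW7845 + LPS group. Arrays of the same set had 0.35 to 0.67. Arrays of different sets had -0.67 to -0.35, which mirrors the same-set range because deviations within a group are equal and opposite. Whether the numbers record a pairing of samples was not tested. With the replicate number as a block the counts were 12 with LPS, 15 with poly(I:C) and 8 among the 7 groups. The shares of all probes under that block are not given here. Signals near the floor, such as those of Vamp1, Rab30, Rab27a and the Rab3 genes, limit what can be said of those probes. The dim signal of Snx4 has a like limit.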
